A study of Saccharomyces cerevisiae BY4741 with 2 samples.

Results

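The genes described here are the small open reading frames (ORFs) of budding yeast that carry a systematic name with a letter suffix, such as YHR022C-A, in place of a standard symbol. They were chosen by name alone, as every row whose name has the form of a chromosome letter, arm, number, strand letter and suffix letter. The rule found 203 names on 220 rows, of 2809 names on 3146 rows in all. RNA was measured in 2 haploid MATa strains of Saccharomyces cerevisiae, the labelled organism being BY4741. The dbp2Δ strain carried dbp2::KanMx in place of DBP2, a gene for a DEAD-box RNA helicase, together with ura3Δ0, leu2Δ0, his3Δ0, TRP1, met- and lysΔ. The wild-type strain carried the alleles his3Δ1, leu2Δ0, met15Δ0 and ura3Δ0, so that a lysine requirement was labelled for the deletion strain alone. Both strains were grown at 30°C to mid-log phase in rich medium with 2% glucose, and total RNA depleted of ribosomal RNA was sequenced from libraries of a SOLiD total RNA kit, a design that keeps the strand of the RNA. The labels name 2 replicates per strain, but there is 1 value column per strain. There is therefore no estimate of the spread between replicates, and no difference below has a test or a replicate check.

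Values are FPKM, the number of sequenced fragments divided by transcript length and by library size, and the depth behind them is unknown. The DBP2 gene itself, on 3 rows, was at 2.52, 3.70 and 3.33 FPKM in the dbp2 deletion, against 1539.7, 348 and 5.62 FPKM in wild type. Genes were compared only where a name stood on 1 row, was above 0 in both strains and had a mean of at least 1 FPKM. The ratio is given as log2 of (dbp2 deletion + 1) / (wild type + 1), which understates the change of low genes. Folds are plain ratios of the FPKM values, and genes are counted past a limit of 2-fold on the log2 scale.

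The systematic name of a yeast ORF gives its chromosome, arm, order from the centromere and strand. When the first annotation of the genome was made, only ORFs above a length limit were numbered in a row. Shorter ORFs were added later from homology searches, expression profiling and proteomics, and took the number of a neighbour with a letter. Some encode characterised small proteins of mitochondria or membranes, some are the Gag and Gag-Pol ORFs of Ty retrotransposons, and many lie opposite or inside longer genes and have no known product.

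The label of small ORFs held for most members in the annotation, but not for all. RefSeq assembly R64, the assembly that the submitters' build name sacCer3 refers to, holds 87 of the 203 names as locus tags, and all 87 are protein-coding there. Of these, 64 are uncharacterised or lack a symbol, 14 have received a symbol and 9 are Ty Gag or Gag-Pol ORFs. The 78 that are not Ty ORFs have coding lengths of 51 to 711 bp, with a median of 211.5 bp. The Ty ORFs are not small, with coding lengths of 1323 to 5409 bp. The other 116 names are not in that annotation, so no position, length or role is given for them.

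The coding sequences below are those of annotated members that differed by at least 2-fold, had a mean of at least 10 FPKM, were at most 300 bp long and had no near-identical copy. They show how little sequence stands behind each FPKM value. All are 1-based R64 positions, printed 5′ to 3′ on the coding strand from RefSeq, with the start and stop codons in capitals. The first 5 were lower in the dbp2 deletion. They lie at chrVIII:151217-151306 (minus strand), chrI:192337-192417 (minus), chrXVI:264602-264700 (plus), chrXIV:440797-440919 (minus) and chrXIV:351386-351580 (minus).
YHR022C-A: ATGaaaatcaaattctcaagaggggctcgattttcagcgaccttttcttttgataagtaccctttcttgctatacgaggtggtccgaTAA
YAR035C-A: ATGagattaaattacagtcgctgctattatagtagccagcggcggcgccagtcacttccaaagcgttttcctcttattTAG
YPL152W-A: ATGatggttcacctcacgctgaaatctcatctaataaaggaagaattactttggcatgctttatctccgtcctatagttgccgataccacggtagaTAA
YNL097C-B: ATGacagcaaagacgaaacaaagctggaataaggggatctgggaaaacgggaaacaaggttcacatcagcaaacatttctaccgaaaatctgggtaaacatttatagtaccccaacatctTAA
YNL146C-A: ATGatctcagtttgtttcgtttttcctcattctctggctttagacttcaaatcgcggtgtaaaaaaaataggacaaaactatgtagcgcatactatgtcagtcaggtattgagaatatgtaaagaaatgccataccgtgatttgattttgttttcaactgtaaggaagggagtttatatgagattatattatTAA
The other 3 were higher in the dbp2 deletion, and lie at chrXV:371685-371957 (plus), chrVIII:453558-453707 (plus) and chrIX:173365-173592 (minus).
YOR020W-A: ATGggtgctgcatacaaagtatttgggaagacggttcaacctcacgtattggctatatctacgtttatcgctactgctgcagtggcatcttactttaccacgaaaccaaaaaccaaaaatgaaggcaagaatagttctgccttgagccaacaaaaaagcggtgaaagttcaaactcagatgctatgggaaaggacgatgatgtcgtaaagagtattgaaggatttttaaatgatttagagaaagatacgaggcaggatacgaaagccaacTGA
YHR175W-A: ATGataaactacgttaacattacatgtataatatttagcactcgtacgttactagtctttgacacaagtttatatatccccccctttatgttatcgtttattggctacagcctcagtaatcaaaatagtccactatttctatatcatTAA
YIL102C-A: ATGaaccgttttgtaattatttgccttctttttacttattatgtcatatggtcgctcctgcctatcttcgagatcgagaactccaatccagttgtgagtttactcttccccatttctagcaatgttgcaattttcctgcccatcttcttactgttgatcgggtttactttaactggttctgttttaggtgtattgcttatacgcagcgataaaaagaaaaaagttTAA

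Suffixed ORFs were more often lower than higher in the dbp2 deletion. The lower side past the limit held 35 (28.5%) of the 123 suffixed ORFs compared, and the higher side held 9 (7.32%). For all 2211 genes compared, the lower side held 241 (10.9%) and the higher side 196 (8.86%). The members' share of lower genes thus stood above that background, and their share of higher genes stood near it. The median log2 ratio was -0.23 for the members and -0.08 for all genes compared. The quartiles of the members' log2 ratios were -1.07 and 0.33, and those of all genes -0.56 and 0.43, so the members spread wider on the lower side.

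**Figure D1:**
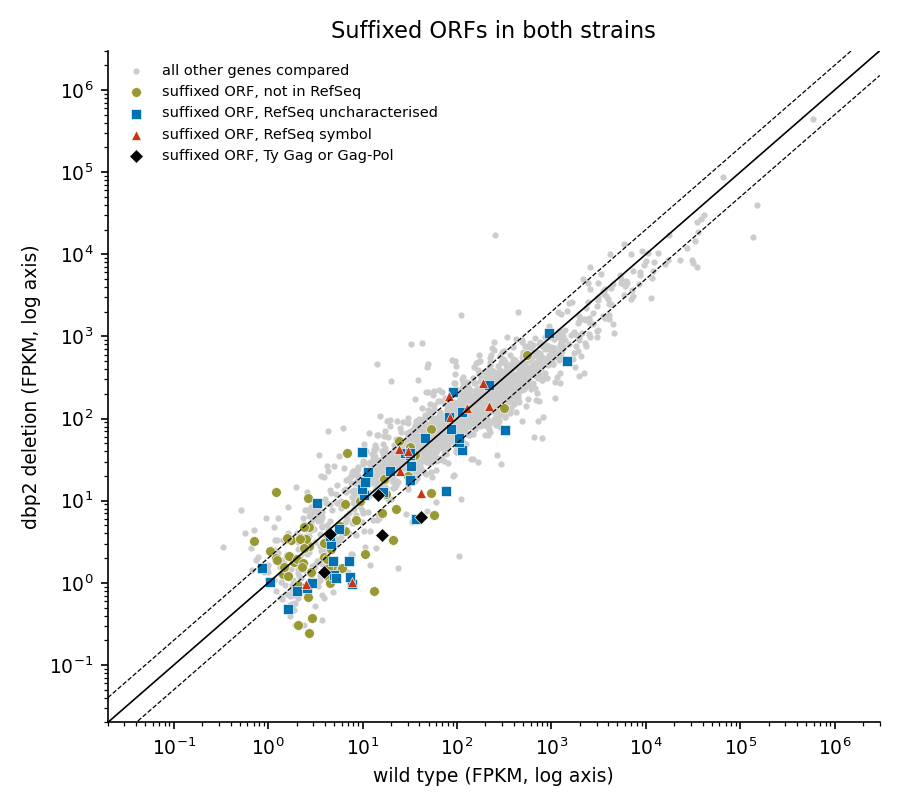
FPKM of the dbp2 deletion (y axis) against wild type (x axis), both log axes, 1 point per gene compared; the solid line marks equal values and the dashed lines 2-fold differences. The suffixed ORFs lie mostly at low FPKM, and more of them are below the lower dashed line (44) than above the upper one (11). The lines are plain 2-fold differences. On the log2 scale with a pseudocount of 1 FPKM, which the text uses, 35 were past the lower limit and 9 past the higher.

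With the pseudocount of 1 FPKM, the share of lower members was alike among weakly and strongly expressed ones. Over all levels, 44 of the 123 members were lower with a pseudocount of 0, and 18 with 5 FPKM. The split by level was not repeated with those settings, so the likeness may not hold there. The members had medians of 4.50 FPKM in the dbp2 deletion and 6.86 FPKM in wild type, against 93.6 FPKM and 94.7 FPKM for all other genes compared. Among genes with a mean of 1 to 10 FPKM, the lower side held 20 of 69 members (29.0%) and 24 of 200 other genes (12.0%). Among genes with a mean of 10 FPKM or more, it held 15 of 54 members (27.8%) and 182 of 1888 other genes (9.64%). In that upper range the members' median log2 ratio was 0.08, so the lower members formed a tail below a median near 0. A member that is low in 1 strain can pass the filter through the other strain. Where both strains had to reach 1 FPKM, the lower side held 28 of 108 members (25.9%) and the higher side 8 (7.41%). Of 2150 genes, the same filter left 226 (10.5%) on the lower side and 189 (8.79%) on the higher.

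**Figure D2:**
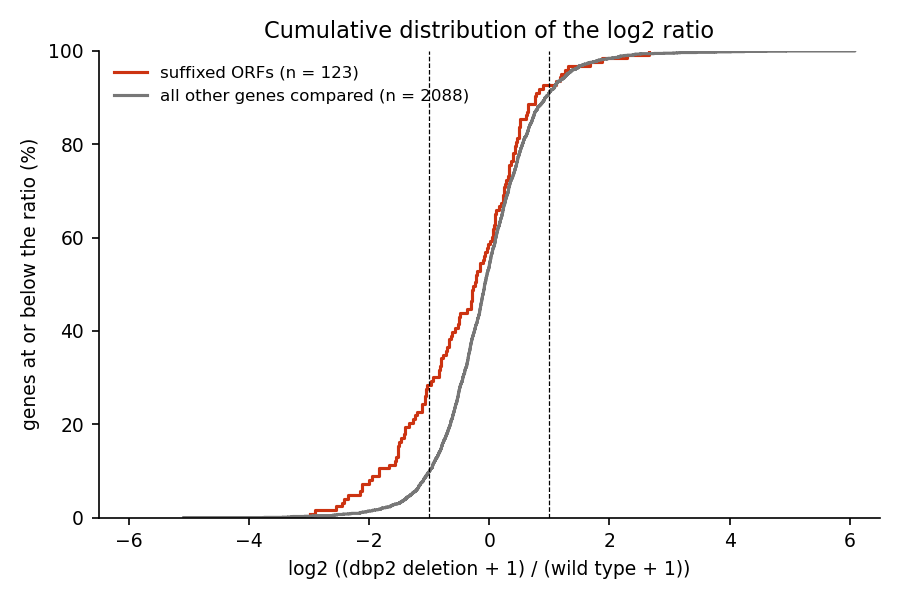
Cumulative share of genes (y axis, %) at or below each log2 ratio (x axis) for the suffixed ORFs and all other genes compared, with dashed lines at 2-fold. The curve of the 123 suffixed ORFs lies above that of the 2088 other genes on the left side, with 28.5% of it at or below the lower limit against 9.87%.

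How many members were counted on each side depended on the scaling between strains. Rescaling the FPKM so that protein-coding genes summed alike in each strain moved the median log2 ratio of all genes up by 0.46. On that scaling the lower side held 24 members (19.5%) and 101 of all genes compared (4.57%). The higher side then held 18 members (14.6%) and 441 of all genes (19.9%). The members' median was then 0.16, and that of all genes 0.38. The members' share of lower genes stood above the share of all genes on both scalings, while the sign of their median did not hold.

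Similar genes outside the group were set beside the members. Suffixed loci that the files list under a standard symbol had 6 lower (14.6%) and 5 higher (12.2%) of 41 compared, with a median of -0.04. Unnamed ORFs with a plain systematic name had 34 lower (9.91%) and 43 higher (12.5%) of 343, also with a median of -0.04. Other genes with coding lengths up to 331 bp, the 90th percentile of members that are not Ty ORFs, had 6 lower (8.45%) and 12 higher (16.9%) of 71. Up to 956 bp, the same percentile with the Ty ORFs included, there were 60 lower (8.84%) and 65 higher (9.57%) of 679. These sets do not match the members in level: the short genes up to 331 bp had medians of 161 FPKM in the dbp2 deletion and 152 FPKM in wild type.

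The lower share was found in annotated and unannotated members alike. Among the 64 compared without a RefSeq entry, the lower side held 18 (28.1%) and the higher side 5 (7.81%). Of the 43 uncharacterised RefSeq members, 12 (27.9%) were lower and 3 (6.98%) higher. Among the shortest annotated members, with up to 150 bp of coding sequence, 6 of 15 were past the lower limit, 2 past the higher, and the median was -0.83. Only 3 other genes of up to 150 bp were compared, 0 of them lower, which is too few for a background. Of 31 members longer than 150 bp and up to 300 bp, 5 were lower (16.1%) and 2 higher (6.45%), with a median of -0.10. Other genes in that longer range had 5 lower (12.2%) and 5 higher (12.2%) of 41. The members' lower share in that range thus stood near that of other genes. Above 300 bp and up to 1 kb, 3 of 8 members were lower (37.5%) and 0 higher, with a median of 0.12. Of 685 other genes of such length, 58 were lower (8.47%) and 68 higher (9.93%). The members' lower share thus did not fall steadily with length, though 8 members are few. Among annotated members other than Ty ORFs, the median coding length was 178.5 bp for the 14 lower, 189 bp for the 4 higher and 208.5 bp for the 36 in between. The median GC content of the same ORFs was 39.9% for the lower, 36.3% for the higher and 37.8% for those in between.

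**Figure D3:**
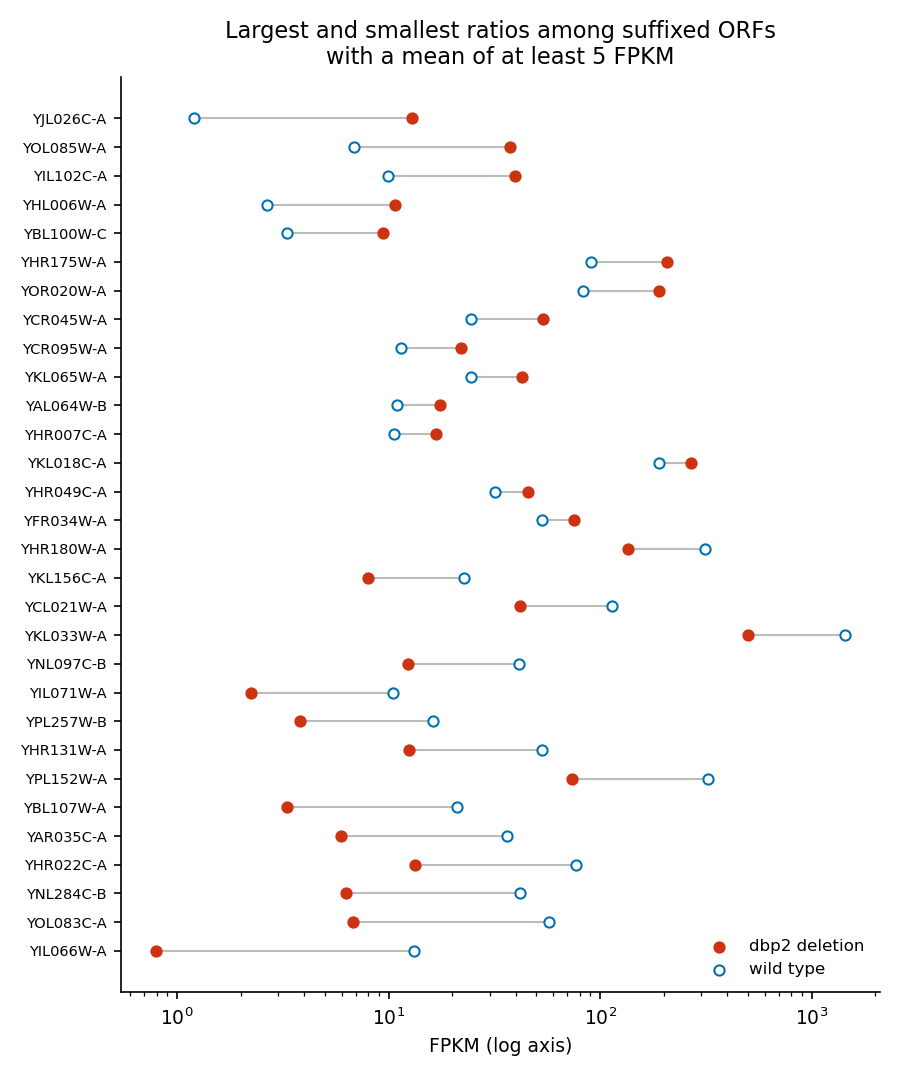
FPKM (x axis, log) in the dbp2 deletion (filled) and wild type (open) for the 15 largest and 15 smallest log2 ratios among suffixed ORFs with a mean of at least 5 FPKM, ordered by ratio from the top. The top ORF is at 12.9 FPKM in the dbp2 deletion and 1.20 FPKM in wild type and the bottom one at 0.79 FPKM in the dbp2 deletion and 13.2 FPKM in wild type, with the dbp2 deletion on the right in the upper 15 and on the left in the lower 15.

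Of the annotated members that were higher in the dbp2 deletion, the highest ratio belonged to YIL102C-A. RefSeq describes its product as a regulatory subunit of dolichyl phosphate mannose synthase, the enzyme that makes a mannose donor for protein glycosylation and lipid anchors in the endoplasmic reticulum. It was at 39.4 FPKM in the dbp2 deletion and 9.95 FPKM in wild type, 3.96-fold higher, with 75 codons. YOR020W-A, now MCO10, encodes a small subunit of the mitochondrial ATP synthase. It was at 189.7 FPKM in the dbp2 deletion and 83.0 FPKM in wild type, a 2.29-fold higher value.

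The uncharacterised YHR175W-A, with 49 codons, was at 207.9 FPKM in the dbp2 deletion and 90.3 FPKM in wild type (2.30-fold). It lies 116 bp from CTR2, a vacuolar copper transporter gene on the same strand. CTR2 itself was at 374 FPKM in the dbp2 deletion and 225 FPKM in wild type, a log2 ratio of 0.73, so both ORFs of this pair had the higher value in the deletion strain. The part of CTR2 transcripts in the value of YHR175W-A was not tested. The fourth annotated member past the limit was the uncharacterised YBL100W-C, at 9.36 FPKM in the dbp2 deletion and 3.30 FPKM in wild type.

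Among members with a mean of at least 5 FPKM, the next in order of ratio stayed below the limit. They were YCR095W-A (22.1 FPKM in the dbp2 deletion, 11.4 in wild type), YAL064W-B (17.4 in the dbp2 deletion, 10.9 in wild type), YHR007C-A (16.7 in the dbp2 deletion, 10.6 in wild type), YHR049C-A (45.7 in the dbp2 deletion, 31.9 in wild type) and YFR034W-A (75.5 in the dbp2 deletion, 53.3 in wild type), besides DPC7 and MCO12 described below.

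The annotated members that were lower included very short uncharacterised ORFs. YHR022C-A, of 29 codons, was at 13.3 FPKM in the dbp2 deletion and 77.1 FPKM in wild type, 5.81-fold lower. YAR035C-A, of 26 codons, was at 5.98 FPKM in the dbp2 deletion and 36.5 FPKM in wild type, 6.10-fold lower. RefSeq calls it an ORF that arose recently from noncoding sequence and whose product localises to mitochondria. YPL152W-A, of 32 codons, was the most abundant of these, at 73.4 FPKM in the dbp2 deletion and 322 FPKM in wild type, 4.39-fold lower. The coding sequences of all 3, printed above, are shorter than the 150 bp below which 6 of 15 members were lower.

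Longer uncharacterised members were lower too. YKL033W-A, which encodes a protein of the haloacid dehalogenase superfamily, a large group of hydrolases that includes many phosphatases, has 236 codons. It was at 501 FPKM in the dbp2 deletion and 1443 FPKM in wild type, 2.88-fold lower, and was the most abundant member past the limit. YCL021W-A, whose tagged product was located to the vacuole according to RefSeq, was at 42.0 FPKM in the dbp2 deletion and 114 FPKM in wild type. YNL146C-A, just past the limit, was at 51.4 FPKM in the dbp2 deletion and 106 FPKM in wild type. It lies 2 bp from LSM7, an RNA-binding protein gene on the other strand, which was at 211 FPKM in the dbp2 deletion and 163 FPKM in wild type.

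The remaining uncharacterised RefSeq members past the lower limit were all below 8 FPKM in wild type. They were YHR139C-A, YIL134C-A, YIL105W-A, YNL067W-B, YHR086W-A and YOR008C-A, with log2 ratios of -2.15 to -1.05. YIL105W-A lies wholly inside SLM1 on the other strand and was at 1.14 FPKM in the dbp2 deletion and 5.27 FPKM in wild type, while SLM1, a regulator of the actin cytoskeleton, was at 70.4 FPKM in the dbp2 deletion and 87.8 FPKM in wild type. YNL067W-B lies 123 bp from the ribosomal protein gene RPL9B on the same strand and had 1.84 FPKM in the dbp2 deletion and 7.12 FPKM in wild type. RPL9B was lower as well, at 428 FPKM in the dbp2 deletion and 1785 FPKM in wild type. YHR086W-A went the other way from its neighbour: it was at 1.25 FPKM in the dbp2 deletion and 4.92 FPKM in wild type, whereas RTC3, 427 bp away on the same strand, was at 818 FPKM in the dbp2 deletion and 32.7 FPKM in wild type.

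Of the 14 members that now have a symbol, 11 could be compared, with 1 higher, 2 lower and a median log2 ratio of 0.06. Several of them encode mitochondrial proteins. YNL097C-B, now PLS1, encodes a peroxisomal protein that regulates lysine synthesis. It was at 12.4 FPKM in the dbp2 deletion and 41.3 FPKM in wild type, 3.34-fold lower; the labels give the lysine requirement for the deletion strain alone, and its part in this value was not tested. YJR005C-A, now LSO1, is linked to the response to iron deprivation. It was at 1.02 FPKM in the dbp2 deletion and 7.73 FPKM in wild type, 7.59-fold lower.

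The others with a symbol did not reach the limit on the log2 scale. YIL156W-B, or ATG44, encodes mitofissin, a factor that divides mitochondria during mitophagy, and has 2 coding exons; it was at 104 FPKM in the dbp2 deletion and 84.1 FPKM in wild type. YCR075W-A, or EGO2, encodes a subunit of the vacuolar EGO complex that signals to TORC1, and was at 135 FPKM in the dbp2 deletion and 129 FPKM in wild type. The values were nearly equal for this gene, while its paralog EGO4, described further below, differed on 1 of its rows. YIL002W-A (CMI7), a putative mitochondrial protein gene, was at 142 FPKM in the dbp2 deletion and 219 FPKM in wild type. YKL018C-A (MCO12) was at 269.5 FPKM in the dbp2 deletion and 189.6 FPKM in wild type, and YKL065W-A (DPC7) at 42.8 FPKM in the dbp2 deletion and 24.5 FPKM in wild type. YAL044W-A (BOL1), a gene for an iron-sulfur cluster factor of mitochondria, was at 40.1 FPKM in the dbp2 deletion and 30.3 FPKM in wild type. None of these 4 genes reached the limit. YJL133C-A (DPI8) was at 23.0 FPKM in the dbp2 deletion and 24.6 FPKM in wild type, and YBR296C-A (TYC1), an inhibitor of the anaphase-promoting complex, at 0.97 FPKM in the dbp2 deletion and 2.51 FPKM in wild type. The plain ratio of TYC1 was 2.58-fold lower, and its log2 ratio with the pseudocount was -0.83.

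Ty elements are retrotransposons that move through an RNA copy, and their Gag and Pol ORFs make virus-like particles. All 5 Ty members compared had the lower value in the dbp2 deletion, as did 1194 of all 2211 genes compared. For 2 of the 5 the sign turned with equal protein-coding sums. All 5 have near-identical copies, as described below, so their values may not be separate observations. The 3 past the limit, where 10.9% of all genes were, are in Ty1 elements. YNL284C-B (element YNLCTy1-1, chrXIV:96964-102232) was at 6.27 FPKM in the dbp2 deletion and 41.8 FPKM in wild type, 6.66-fold lower. YPL257W-B (YPLWTy1-1) was at 3.81 FPKM in the dbp2 deletion and 16.2 FPKM in wild type, and YOL103W-B (YOLWTy1-1) at 1.34 FPKM in the dbp2 deletion and 3.91 FPKM in wild type.

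The other Ty values were closer together. The Gag ORF YNL054W-A, also in a Ty1 element, was at 11.6 FPKM in the dbp2 deletion and 14.4 FPKM in wild type, and the Ty4 ORF YHL009W-B at 3.94 FPKM in the dbp2 deletion and 4.52 FPKM in wild type; these are the 2 whose sign turned. The remaining 4 Ty members (YFL002W-A in a Ty2 element, YHR214C-B in Ty1, YIL082W-A in Ty3 and YPL060C-A in Ty4) had means under 1 FPKM and were not compared. Of these, YIL082W-A had the higher value in the dbp2 deletion (0.55 FPKM, against 0.49 FPKM in wild type), and the others the lower value. All Ty members but YIL082W-A have between 2 and 29 near-identical copies elsewhere in the genome (at least 95% identity over at least 80% of the length), so reads of 1 element cannot be told from those of others and the value of a single Ty ORF is uncertain.

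Members without a RefSeq entry held the most extreme ratios. YIL066W-A was at 0.79 FPKM in the dbp2 deletion and 13.2 FPKM in wild type, 16.7-fold lower. YOL083C-A was at 6.76 FPKM in the dbp2 deletion and 57.1 FPKM in wild type, 8.45-fold lower. At the other end YJL026C-A was at 12.9 FPKM in the dbp2 deletion and 1.20 FPKM in wild type, 10.8-fold higher. For none of the 3 does the annotation give a length against which the FPKM could be read.

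Further unannotated members past the lower limit with a mean of at least 5 FPKM were YBL107W-A (3.31 FPKM in the dbp2 deletion, 21.0 in wild type), YHR131W-A (12.5 in the dbp2 deletion, 53.1 in wild type), YIL071W-A (2.23 in the dbp2 deletion, 10.5 in wild type), YKL156C-A (7.96 in the dbp2 deletion, 22.7 in wild type) and YDL240C-A (7.13 in the dbp2 deletion, 15.9 in wild type). YHR180W-A was the most abundant of the lower ones, at 136 FPKM in the dbp2 deletion and 312 FPKM in wild type. The other 10 without a RefSeq entry past the lower limit had means under 5 FPKM and log2 ratios of -1.56 to -1.06. Higher in the dbp2 deletion were YOL085W-A (37.6 FPKM in the dbp2 deletion, 6.86 in wild type), YHL006W-A (10.7 in the dbp2 deletion, 2.67 in wild type), YCR045W-A (53.6 in the dbp2 deletion, 24.4 in wild type) and YHR056W-A (3.24 in the dbp2 deletion, 0.71 in wild type). None of these ORFs has a product or role in the annotation used here.

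An ORF of this kind usually lies beside the gene whose number it bears, so the pair can be set side by side. Of 72 annotated members on 1 row with an annotated gene of the same number, 56 lie within 1 kb of it, at a median distance of 492 bp. Of the 64 compared members not in RefSeq, 53 have a gene of their number on the other strand. Strand-specific libraries can separate such pairs, but the use of strand when reads were assigned to genes is not given in the sources used here. Reads of an ORF and of a gene opposite it could therefore not be told apart with certainty.

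The ratios of such pairs showed little relation in these data. Of 29 members that were at least 2-fold lower and had a gene of their number compared, 2 had that gene at least 2-fold lower as well, and of 7 that were at least 2-fold higher, 0 did. With 10.9% of all genes past the lower limit and 8.86% past the higher, these counts are near the background and show nothing particular to the pairs. Over all 98 pairs, whose values come from the same 2 libraries, Pearson's r of the log2 ratios was 0.14 and Spearman's rho 0.15, given as a description. YIL066W-A, 16.7-fold lower, has the number of RNR3, a ribonucleotide reductase gene on the other strand, which was at 6.54 FPKM in the dbp2 deletion and 6.65 FPKM in wild type. YJL026C-A, 10.8-fold higher, has the number of RNR2, another ribonucleotide reductase gene, at 639 FPKM in the dbp2 deletion and 496 FPKM in wild type. YBL107W-A has the number of MIX23, a mitochondrial intermembrane space protein gene, at 119 FPKM in the dbp2 deletion and 122 FPKM in wild type. In all 3 pairs the numbered gene differed far less than the suffixed ORF. Their suffixed ORFs had some of the most extreme ratios, so this contrast was likely beforehand and shows nothing about pairs in general. In the 2 pairs with both sides past the lower limit, the log2 ratios were -1.96 for YIL134C-A and -1.11 for FLX1. They were -1.52 for YNL067W-B and -2.06 for RPL9B.

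**Figure D4:**
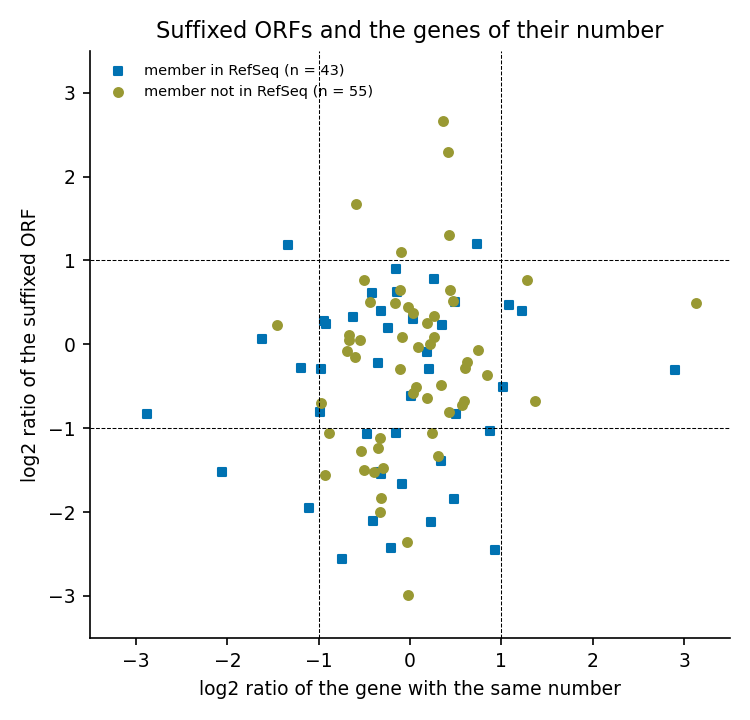
Log2 ratio of each suffixed ORF (y axis) against that of the gene with the same number (x axis), 98 pairs; dashed lines mark 2-fold. The points past the lower limit on the y axis spread over both sides of 0 on the x axis, and 2 of them are past the lower limit on both.

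Nearest annotated genes were set beside the members in the same way. Over 44 members whose nearest gene was also compared, Pearson's r of the log2 ratios was -0.01 and Spearman's rho 0.09. Of the 13 that were at least 2-fold lower, 2 had a nearest gene that was at least 2-fold lower too, and the median log2 ratio of those 13 nearest genes was -0.15. That count, too, is small and near the 10.9% of all genes. Members within 50 kb of a chromosome end had 1 lower and 1 higher of 13 compared, whereas members farther away had 16 lower (34.8%) and 3 higher (6.52%) of 46. The difference between these 2 groups has no test here.

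Of the 10 highest means among members compared, 3 were past the lower limit and 2 past the higher, where 10.9% and 8.86% of all genes were. YCR024C-B and MHF1, which stand on 2 rows each, are described below. YJL047C-A had the highest mean of the members compared, at 1113 FPKM in the dbp2 deletion and 950 FPKM in wild type. It overlaps SNR60, a small nucleolar RNA gene on the same strand, so reads of the 2 genes may not be told apart. YHR032W-A, which is not in RefSeq, was at 586 FPKM in the dbp2 deletion and 551 FPKM in wild type. YCR087C-A, whose product binds zinc, was at 257 FPKM in the dbp2 deletion and 216 FPKM in wild type. Past the limit were YKL033W-A, YHR180W-A and YPL152W-A, which were lower, and YHR175W-A and YOR020W-A, which were higher. In all, 12 of the 123 members compared had a mean of 100 FPKM or more.

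Some values lay close to the limit on either side. YDL240C-A (log2 ratio -1.05) and YNL146C-A (-1.03) were just past it, and YHR213W-B (-0.97) and YAL063C-A (-0.94) just short of it. On the higher side YCR045W-A (1.11) and YOR020W-A (1.18) were past it and YCR095W-A (0.90) and YIR030W-A (0.82) short of it.

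A large share of the members was listed at 0. Of the 186 names on 1 row, 31 (16.7%) were at 0 in both strains, 3 (1.61%) in the dbp2 deletion only and 16 (8.60%) in wild type only, 50 (26.9%) in all. Of 2310 other genes on 1 row the shares were 4.37%, 0.52% and 1.73%, or 6.62% in all. A further 13 members were above 0 in both strains with a mean under 1 FPKM. An exact 0 can be a failed estimate in this kind of output: the abundant pyruvate kinase gene CDC19 is listed at 0 in the dbp2 deletion and at 31167 FPKM in wild type. No fold was formed for such rows.

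Among the members, zeros were more frequent for those with the number of a gene near a chromosome end. Of 63 members that bear the number of a gene within 50 kb of an end, 25 (39.7%) were at 0 in both strains, against 5 of 117 (4.27%) with the number of a gene farther away. The share at 0 of other genes near chromosome ends was not computed, so the contrast may not be particular to the members. Some ORFs there are repeated: YER190C-B, at 0 in both strains, has 18 near-identical copies. The part of such copies in the zeros was not tested. None of the 11 members with a symbol on 1 row was listed at 0, while 26 of 108 members not in RefSeq (24.1%) were at 0 in both strains.

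**Figure D5:**
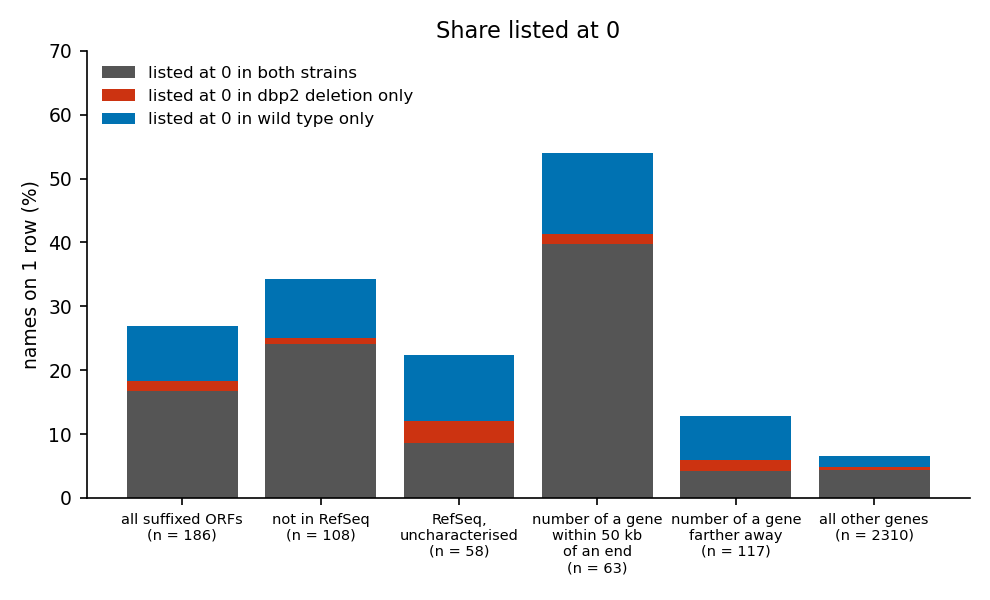
Share of names on 1 row (y axis, %) listed at 0 in both strains, in the dbp2 deletion only and in wild type only, for the suffixed ORFs, for 4 subsets of them and for all other genes. The bar for ORFs with the number of a gene within 50 kb of a chromosome end is the tallest, at 54.0%, against 6.62% for all other genes.

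The members listed at 0 in 1 strain were mostly low in the other. YHL015W-A, an uncharacterised ORF of 27 codons, was listed at 0 in the dbp2 deletion and at 36.5 FPKM in wild type, YKL100W-A at 0 in the dbp2 deletion and 9.87 FPKM in wild type, and YHR214C-E at 0 in the dbp2 deletion and 0.37 FPKM in wild type. In the other direction YDL247W-A stood out, with 62.9 FPKM in the dbp2 deletion and 0 in wild type. YHL048C-A, whose product was located to peroxisomes according to RefSeq, was at 8.94 FPKM in the dbp2 deletion and 0 in wild type. YLR466C-B (7.42 FPKM), YAL037C-A (6.37 FPKM), YJL127W-A (6.35 FPKM), YNR003W-A (6.33 FPKM) and YFL031C-A (4.41 FPKM) were also above 0 in the dbp2 deletion only. The other 9 of the 16, namely YAL067W-A, YBL113W-A, YEL075W-A, YEL076C-A, YJL020W-A, YJL052C-A, YJL156W-A, YJL197C-A and YNR075C-A, were at 0.053 to 1.80 FPKM there. More members were thus at 0 in wild type alone than in the dbp2 deletion alone, as were more of the other genes (12 at 0 in the dbp2 deletion only and 40 in wild type only).

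A further 17 names stood on 2 rows each and were not compared, since how the rows differ is not stated. Of the 14 without a row at 0, 10 had rows that went opposite ways. EGO4 (YNR034W-A) encodes the paralog of Ego2, and RefSeq describes it as repressed by glucose, expressed in stationary phase and regulated by the stress factors Msn2 and Msn4. Its higher row was at 178 FPKM in the dbp2 deletion and 33.8 FPKM in wild type, a 5.28-fold higher value, and its other row at 9.58 FPKM in the dbp2 deletion and 14.0 FPKM in wild type. The 2 rows of this gene disagreed in direction.

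Taken row by row as a description, the more abundant row was at least 2-fold higher for 6 of the 17 names and at least 2-fold lower for 1. With every row of repeated names included, 9.74% of member rows and 10.4% of all rows were past the higher limit, so the members' higher share was near that of all genes. That share covers mostly names on 1 row. The more abundant rows of other repeated names were not counted, so the 6 of 17 have no like background. Besides EGO4, the higher ones were YCL048W-A (36.7 FPKM in the dbp2 deletion, 3.87 in wild type), YGL258W-A (17.5 in the dbp2 deletion, 3.96 in wild type), YKL162C-A (27.2 in the dbp2 deletion, 7.72 in wild type), YKL068W-A (109 in the dbp2 deletion, 34.7 in wild type) and YIL014C-A (124 in the dbp2 deletion, 43.2 in wild type). The lower one was YCR097W-A, at 3.78 FPKM in the dbp2 deletion and 30.6 FPKM in wild type, with its other row at 0.50 FPKM in the dbp2 deletion and 0 in wild type. For YGL258W-A and YKL068W-A both rows had the higher value in the dbp2 deletion. The uncharacterised YCR024C-B had the highest values of any member, at 4601 FPKM in the dbp2 deletion and 6212.5 FPKM in wild type on 1 row, and at 1791 FPKM in the dbp2 deletion and 1051 FPKM in wild type on the other. It lies 79 bp from PMP1, a gene for a small regulator of the plasma membrane proton pump, on the same strand.

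For 7 other repeated names the limit was not reached on the more abundant row. YOL086W-A (MHF1), a histone-fold protein gene of DNA repair, was at 545 FPKM in the dbp2 deletion and 360 FPKM in wild type, with a second row at 5.17 FPKM in the dbp2 deletion and 6.35 FPKM in wild type. YNL103W-A was at 181 FPKM in the dbp2 deletion and 118 FPKM in wild type, with a second row at 6.19 FPKM in the dbp2 deletion and 24.2 FPKM in wild type. YFR032C-B (MIN10), a mitochondrial protein gene, was at 63.9 FPKM in the dbp2 deletion and 60.8 FPKM in wild type. The more abundant rows of YAR019W-A, YJR151W-A, YKL165C-A and YPL222C-A were at 13.3 to 63.7 FPKM in either strain. The last pair of repeated names, YAL037C-B and YNL067W-A, had no row of 10 FPKM.

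Promoters were searched because general stress genes and phosphate genes are regulated through known short motifs. The window ran from 250 bases before to 50 bases after the start codon's first base, on both strands. AGGGG, the core of the stress response element bound by Msn2 and Msn4, also counted as CCCCT, was in 21 of 78 windows of members that are not Ty ORFs (26.9%), and in 1297 of 6001 windows of all nuclear protein-coding genes (21.6%). It was in 5 of 14 windows of members at least 2-fold lower, in 1 of 4 of those at least 2-fold higher and in 6 of 36 in between. CACGTT, a weaker Pho4 site core, was in 4 of the 14, 1 of the 4 and 3 of the 36, against 547 of 6001 (9.12%) and 9 of the 78 (11.5%). CACGTG, the stronger core, was in 0 of these 54 windows. It was in 2 of the 78 (2.56%) and in 175 of 6001 (2.92%), so its share among the members was near that of all genes. A match is a description of the letters in the window and not a bound site.

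Among the lower members with printed coding sequences, PLS1 held the most matches. YNL146C-A held 2, YHR022C-A and YAR035C-A 1 each and YPL152W-A 0. The last match of PLS1 and the only match of YHR022C-A lie after the start codon, inside the coding sequence. A pair of windows is shown, with AGGGG or CCCCT in capitals: that of PLS1 (YNL097C-B, chrXIV:440870-441169, minus strand), which was lower in the dbp2 deletion and holds 5 matches, and that of EGO4 (YNR034W-A, chrXIV:692311-692610, plus strand), a gene with known Msn2 and Msn4 regulation, which holds 1.
YNL097C-B: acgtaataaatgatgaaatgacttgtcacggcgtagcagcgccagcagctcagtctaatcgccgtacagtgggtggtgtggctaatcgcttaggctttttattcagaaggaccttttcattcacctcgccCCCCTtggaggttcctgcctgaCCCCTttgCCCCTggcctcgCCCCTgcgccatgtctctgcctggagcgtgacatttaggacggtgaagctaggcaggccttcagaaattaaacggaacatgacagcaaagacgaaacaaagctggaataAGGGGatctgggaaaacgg
YNR034W-A: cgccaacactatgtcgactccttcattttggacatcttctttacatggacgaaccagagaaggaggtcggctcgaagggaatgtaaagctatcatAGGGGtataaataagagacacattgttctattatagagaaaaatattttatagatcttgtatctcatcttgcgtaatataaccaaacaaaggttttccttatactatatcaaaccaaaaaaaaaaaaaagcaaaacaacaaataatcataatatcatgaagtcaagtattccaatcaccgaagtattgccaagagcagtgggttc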

How the data were processed

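RNA of 1 sample per strain was compared. The deposited values were taken as FPKM: Cuffdiff 2.1.1 stands in the submitters' processing notes with the build sacCer3, and each column holds fractions whose total, 1724410 in the dbp2 deletion and 5210210 in wild type, exceeds that of CPM or TPM. Not given in the sources used here are the pooling of the 2 labelled replicates, the library scaling, the read aligner, the annotation used and whether strand was used in counting. Depth is unknown, so no counting interval was computed.

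Members were found by the form of their name. They, the comparison sets and the rule for named genes were chosen with earlier results of these data known. Pairing members with the gene of their number, the search for near-identical copies, the length limit of 331 bp and the splits by level and length were added after the files were seen. Named members were the 15 largest and 15 smallest log2 ratios with a mean of at least 5 FPKM, the 10 highest means, those at 0 in 1 strain, repeated names with a row of at least 10 FPKM, those with a RefSeq role and the 4 nearest the limit on each side. Any other was chosen after its values were seen. The ratio was log2 with a pseudocount of 1 FPKM, and with 1 sample per strain no p-value was computed. Positions come from RefSeq R64. Copies were found with blastn 2.17.0 at 95% identity over 80% of the length. Python 3.11.15, numpy 2.4.6, pandas 2.3.3, scipy 1.17.1 and matplotlib 3.10.9 were used. The counting procedure was tested on simulated data. Alternatives changed the pseudocount, the filter, the scaling, the rows and the members used.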

Additional observations from a re-analysis of the deposited data

How the results depend on the processing

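The members' median log2 ratio, -0.23 as reported, was -0.30 with a pseudocount of 0 or 0.1 FPKM, -0.13 with 5 FPKM, and 0.064 and 0.076 with a mean of at least 5 or 10 FPKM. It was 0.16 with equal protein-coding sums, -0.24 with equal medians, -0.17 with every row of repeated names, -0.28 for RefSeq members only and -0.21 without Ty members, without overlapping members, without members with a near-identical copy, or with values of 0 in 1 strain kept. The last 2 settings were chosen after seeing the data.

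The count of members at least 2-fold lower, 35 as reported, was 18 with a pseudocount of 5 FPKM (14.6% of members, against 8.73% of all genes), 17 of 65 and 15 of 54 with a mean of at least 5 or 10 FPKM, and 17 of 59 for RefSeq members only; the smaller numbers compared are part of the last 3. The count at least 2-fold higher, 9 as reported, was 5 with a mean of at least 10 FPKM (9.26%, against 8.6% of all genes). It was 4 for RefSeq members only (6.78%, against 8.86%) and 15 with every row of repeated names (9.74%, against 10.4%). With values of 0 kept it was 16 (12.1% of 132, against 9.93%). With equal protein-coding sums it was 18 (14.6%), a share below the 19.9% of all genes. The other settings kept these counts within 1.5 times. Among them, a pseudocount of 0 gave 44 lower (35.8%, against 12.5% of all genes) and 11 higher (8.94%, against 10%). Equal protein-coding sums gave 24 lower (19.5%, against 4.57%). With values under 0.1 FPKM taken as 0, 50 members had a 0, and 53 rows did when every row was used.

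The rule for named members chose 27 that were past the limit as reported. Of these, 21 kept their call with equal protein-coding sums and 22 with a pseudocount of 5 FPKM. All 27 kept it with a pseudocount of 0 and with equal medians, and none of them changed direction. Members past the limit that were named outside that rule had means under 5 FPKM. They were not part of this check, so it does not cover the weakest calls named. No paired analysis was possible because each strain has 1 sample. Leaving out a replicate was not possible for the same reason. Unknown depth limits every value near 1 FPKM.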
